A study of Cucurbita moschata with 6 samples.

Results

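The TCP transcription factors and the growth-regulating factors (GRF), with the GRF1-interacting factors (GIF), were examined in pumpkin seedlings (Cucurbita moschata), in the stem between root and cotyledons known as the hypocotyl. Members were taken from the deposited gene table by the product names for TCP factors, growth-regulating factors and GRF1-interacting factors. This gave 58 of 32205 genes, of which 40 were TCP factors, 16 growth-regulating factors and 2 GRF1-interacting factors. They lay on 19 chromosomes, and 3 of them carried the product name of another species, Cucurbita maxima or Cucumis sativus. Poly(A) RNA came from 2 groups of 3 libraries, titled SCK and SR from a study of how far-red light affects the growth of the hypocotyl. Neither name is spelled out in the labels; SCK is read as the control because CK is a customary abbreviation for one. Both groups shared all other labels: seedlings with unfolded cotyledons, days of 14 h light (28 °C) with nights of 10 h (18 °C), and a far-red exposure of 120 s, which the labels give to all 6 samples. What set the groups apart is therefore known only by their titles. The labels do not say whether replicates came from separate plants, and the p-values therefore reflect sample-to-sample spread that may be technical.

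TCP proteins are plant transcription factors that bind DNA through a basic helix-loop-helix type domain. Class I members mostly promote growth and cell division, CIN members end cell proliferation in leaves and cotyledons, and CYC/TB1 members hold back lateral buds, as worked out largely in Arabidopsis. Growth-regulating factors promote cell proliferation in growing organs and work with the GRF1-interacting factors, coactivators that recruit chromatin remodellers. Transcripts of several CIN members are cut under the guidance of miR319, and those of most growth-regulating factors under that of miR396. Subfamilies were assigned here from the number in each product name by the Arabidopsis numbering, which gave 21 class I, 13 CIN and 6 CYC/TB1 genes and left no TCP gene unplaced. Of the 58 genes, 20 carried the deposited KEGG term for the plant circadian rhythm, all of them class I. That term rests on a single orthology entry, and the role behind it is that of Arabidopsis TCP21 (CHE), which represses the clock gene CCA1.

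Total deposited counts ran from 52300725 (SCK replicate 2) to 72356397 (SR replicate 2). Levels below are deposited FPKM, read fragments scaled to transcript length and library size, so that a comparison between genes rests on the transcript length used. Changes are log2 fold changes of SR relative to SCK ± SE from edgeR's quasi-likelihood test on the deposited counts. All adjusted p-values are Benjamini-Hochberg values over the 23509 genes with at least 1 FPKM in at least 3 libraries. SCK replicate 3 lay between the other SCK libraries in 1494 of the 1596 tested genes in which those were at least 2-fold apart. In the SR group the same held for SR replicate 3 in 1315 of 1697 genes. Without SCK replicate 3 edgeR called 0 of all genes, with 5558 below 0.05 before adjustment, and DESeq2 called 3637. No call below therefore holds in edgeR without that library. Among the tested members, SCK replicate 3 lay between the other SCK libraries in 20 of 40 (50.0%, against 57.7% of all tested genes). Over all tested genes, log2 changes had a median of 0.01 under the TMM scaling used and of 0.14 without it. The TMM factors were 0.926 to 0.976 in SCK and 1.008 to 1.084 in SR. Deposited FPKM, and with them all statements below on overlap between groups, are without these factors, which would lower SR relative to SCK.

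The hypocotyl held mainly class I TCP transcripts. Their summed level was 377 to 431 FPKM in the SCK libraries and 340, 566 and 495 FPKM in SR replicates 1, 2 and 3. CIN genes summed to 50.7 to 55.9 FPKM in SCK and 43.0 to 60.5 in SR. The 16 growth-regulating factors together reached only 29.5 to 32.9 FPKM in SCK and 28.3 to 35.3 in SR, less than the 2 GRF1-interacting factors with 38.7 to 39.3 and 33.5 to 38.7 FPKM. CYC/TB1 genes stayed at or below 1.21 FPKM in sum in every library. The SCK and SR sums overlapped in all 5 subfamilies. In the GRF1-interacting factors they did so only through SR replicate 3, at 38.69 FPKM against 38.68 in SCK replicate 3. That margin is small enough to depend on the scaling, as FPKM hold no TMM factors. In bulk tissue, fewer cells of a type and less RNA per cell cannot be told apart.

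**Figure D1:**
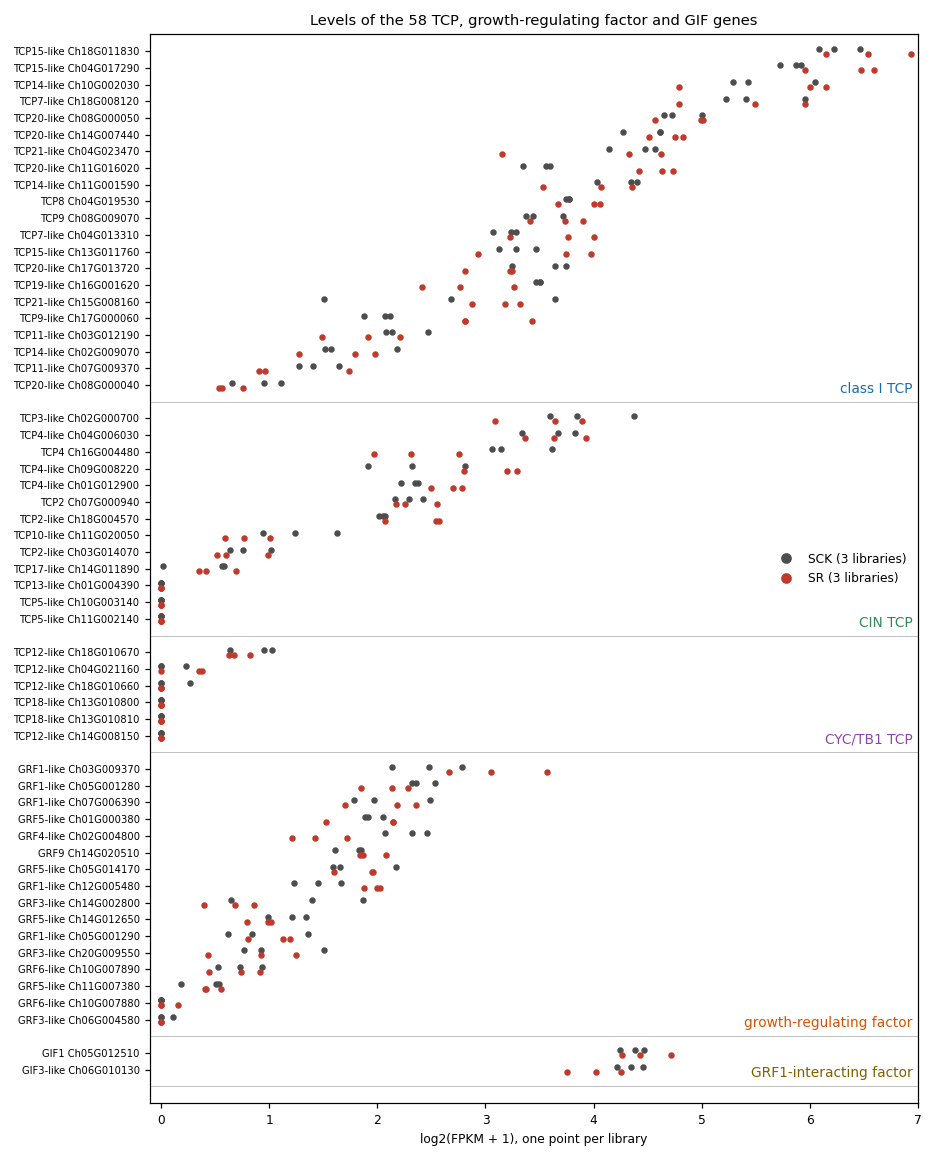
Level of each of the 58 genes as log2(FPKM + 1), with points for the 3 SCK (grey) and 3 SR (red) libraries, ordered by mean level within each subfamily. Class I genes reach 122 FPKM, whereas the TCP5, TCP13 and TCP17 products and the CYC/TB1 genes sit at or near 0.

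In all, 40 of the 58 genes passed the filter on low values, among them 20 of 21 class I, 8 of 13 CIN and 10 of 16 growth-regulating factor genes and both GRF1-interacting factors. None of the 40 passed it through the libraries of 1 group alone, that is, with all 3 libraries of the other group below 1 FPKM. A further 6 had a count of 0 in every library, and 12 had counts below the filter. EdgeR called 3 of the 40 tested members (7.5%), against 14.4% of all tested genes. The rises were a TCP20-like and a TCP9-like gene, 2 against a background of 7.2% of tested genes that rose. The fall was a growth-regulating factor 4-like gene, 1 against a background of 7.16% that fell. At an unadjusted p under 0.05 there were 11 members (27.5%, against 33.3% of all tested genes). The SR values all lay above or all below the SCK values in 10 members (25.0%, against 40.6% of all tested genes). SR was the higher group in 5 of these (12.5%, against 27.9% of all tested genes) and the lower in the other 5 (12.5%, against 12.7%). The share of members called was thus not above the background. The median log2 change of the tested members was -0.08, and 17 lay above 0 and 23 below. Without TMM scaling the median was 0.05, so its sign depends on the scaling, and in both cases it stood below the median of all genes.

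**Figure D2:**
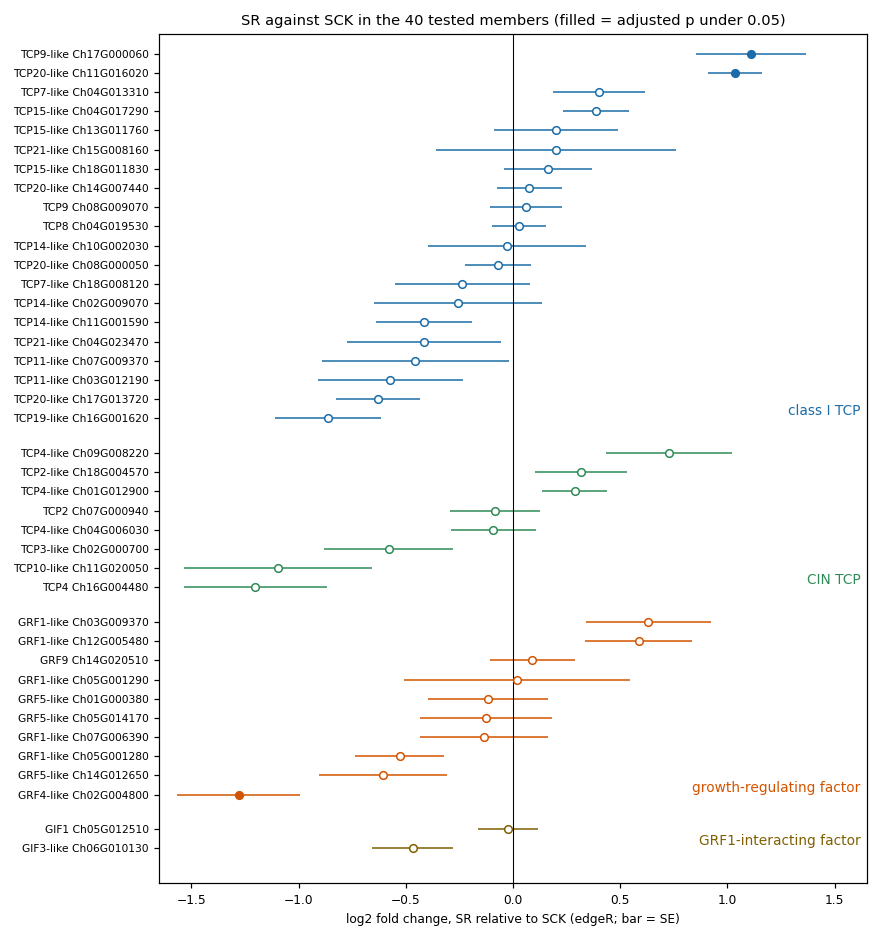
Log2 fold change of SR relative to SCK with its SE for the 40 tested members, by subfamily, with filled points for an adjusted p under 0.05. The 3 filled points lie beyond 1 in size, and the other 37 members spread on both sides of 0 between -1.20 and 0.73.

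Among the class I genes, TCP20-like on chromosome 11 (CmoCh11G016020, positions 11466057 to 11468392 of the deposited coordinates) showed the smallest p of all members. Arabidopsis TCP20 binds promoters of cell cycle and ribosomal protein genes and takes part in the nitrate response. This gene was at 9.18, 11.1 and 10.8 FPKM in SCK replicates 1, 2 and 3 and at 20.5, 25.7 and 23.9 FPKM in SR replicates 1, 2 and 3. All SR libraries thus stood well above all SCK libraries. The means were 10.3 ± 1.02 and 23.3 ± 2.65 FPKM (SD, n = 3), and the gene rose by 1.04 ± 0.12 on the log2 scale (edgeR adjusted p = 0.0116). It stayed called without each library in turn except SCK replicate 3, where its adjusted p was 0.0749 at a log2 change of 1.06.

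TCP9-like on chromosome 17 (CmoCh17G000060, 41969 to 43006) was at 2.66, 3.19 and 3.34 FPKM in SCK and at 6.03, 6.01 and 9.77 in SR. Arabidopsis TCP9 acts with TCP20 on LIPOXYGENASE2, a jasmonate synthesis gene. Here too the groups did not overlap, and SR replicate 3 was the highest. The gene rose by 1.11 ± 0.26 (edgeR adjusted p = 0.0345), from 3.06 ± 0.355 to 7.27 ± 2.17 FPKM. The call was kept without SR replicate 1 or 2, and lost without SCK replicate 1, 2 or 3 or SR replicate 3 (adjusted p = 0.0838, 0.0784, 0.117 and 0.0993). Its namesake on chromosome 8 (CmoCh08G009070, product TCP9) was at 10.4 ± 1.47 and 11.98 ± 2.18 FPKM, with a log2 change of 0.06 ± 0.17 (edgeR adjusted p = 0.842).

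The most abundant member was TCP15-like on chromosome 18 (CmoCh18G011830). In Arabidopsis TCP14 and TCP15 promote cell proliferation and elongation of stems and petioles and link to gibberellin signalling. This gene was at 87.5, 66.7 and 73.5 FPKM in SCK and at 69.8, 122 and 91.8 in SR. The groups overlapped, and the log2 change was 0.16 ± 0.20 (edgeR adjusted p = 0.616). The second most abundant, TCP15-like on chromosome 4 (CmoCh04G017290), was at 51.9, 57.7 and 59.5 FPKM in SCK and at 60.9, 95.3 and 87.8 in SR. Its groups did not overlap in FPKM, though SR replicate 1 stood so little above the highest SCK library that this depends on the scaling. The log2 change was 0.39 ± 0.15 and did not pass (edgeR adjusted p = 0.131), but did without SR replicate 1 (0.0271).

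TCP14-like on chromosome 10 (CmoCh10G002030) was next in level, with 65.0, 38.2 and 42.2 FPKM in SCK and 26.7, 69.8 and 62.9 in SR. TCP7-like on chromosome 18 (CmoCh18G008120) followed, with 61.0, 36.3 and 41.6 FPKM in SCK and 26.6, 60.9 and 44.2 in SR. Both were lowest in SR replicate 1 and high in SCK replicate 1 and SR replicate 2, a spread within groups that was larger than the difference between them (log2 changes of -0.03 ± 0.37 and -0.24 ± 0.32). TCP21-like on chromosome 4 (CmoCh04G023470) was likewise lowest in SR replicate 1, at 7.87 FPKM against 16.6 to 23.6 in the other libraries. The other TCP21-like gene (CmoCh15G008160) had its low value elsewhere, at 1.85 FPKM in SCK replicate 1 against 5.43 to 11.5 in the others. These 4 genes were chosen after their values were seen.

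Among the 40 tested members SR replicate 1 held the lowest value in 11 (27.5%, against 13.6% of all tested genes) and the highest in 1 (2.5%, against 13.2%). SR replicate 2 held the highest value in 14, while it did so in 29.3% of all tested genes. Within the SR group the highest library was a median of 1.596 times the lowest over the tested members, against 1.36 times over all tested genes. Within the SCK group these ratios were 1.34 and 1.31.

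**Figure D3:**
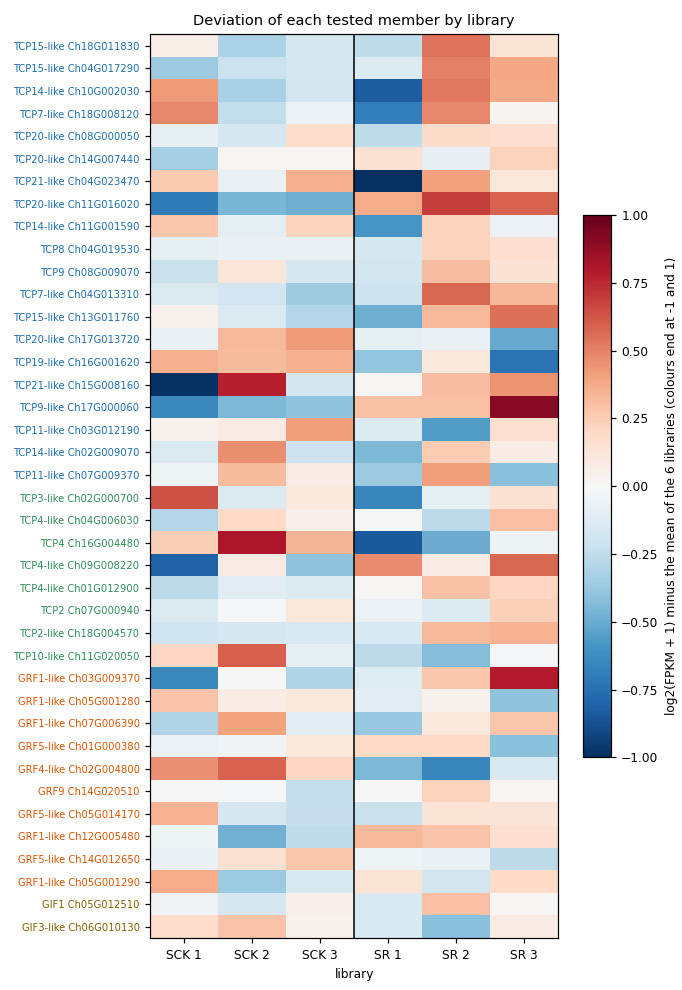
Deviation of each tested member from its mean over the 6 libraries, on the log2(FPKM + 1) scale, with libraries in columns and genes in rows grouped by subfamily. The abundant TCP14-like, TCP7-like and TCP21-like genes are lowest in SR replicate 1, and the rows that separate SCK from SR are few.

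Class I genes that were lower in every SR library than in any SCK library were TCP19-like (CmoCh16G001620) and TCP20-like on chromosome 17 (CmoCh17G013720), both named here after their values were seen. TCP19-like was at 10.4, 10.1 and 10.4 FPKM in SCK and at 5.79, 8.61 and 4.33 in SR (log2 change -0.86 ± 0.25, edgeR adjusted p = 0.0598). It was called in 1 of 6 edgeR fits that each left out 1 library, that without SR replicate 2 (0.0375). Of 9 other settings with all libraries 1 called it, DESeq2 (0.0112). TCP20-like on chromosome 17 was at 8.46, 11.5 and 12.4 FPKM in SCK and at 8.39, 8.46 and 6.03 in SR (log2 change -0.63 ± 0.20, edgeR adjusted p = 0.0743). Its groups were barely apart, with SCK replicate 1 at 8.463 FPKM and SR replicate 2 at 8.459. Of 9 other settings with all libraries 1 called this gene, DESeq2 (0.0267), and edgeR called it in 0 of 6 fits that each left out 1 library.

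The 5 genes with the product TCP20-like therefore differed in direction. Their summed level was 62.6, 70.8 and 78.7 FPKM in SCK and 78.1, 87.9 and 88.6 in SR. The chromosome 11 gene made up 14.7%, 15.6% and 13.7% of that sum in SCK and 26.2%, 29.2% and 26.9% in SR. The chromosome 17 gene made up 13.5%, 16.2% and 15.7% in SCK and 10.7%, 9.63% and 6.81% in SR. The FPKM ratio of the chromosome 11 to the chromosome 17 gene was 1.08, 0.963 and 0.870 in SCK and 2.44, 3.04 and 3.96 in SR. This pair was chosen for its difference, so shares and ratio carry no test. The most abundant TCP20-like genes, on chromosome 8 (CmoCh08G000050) and chromosome 14 (CmoCh14G007440), had log2 changes of -0.07 ± 0.15 and 0.08 ± 0.15. The fifth gene, CmoCh08G000040, lay below the filter at 0.445 to 1.15 FPKM and overlaps CmoCh08G000050 by 401 bases on the other strand. The sources used here do not give whether counting used strand, so reads of overlapping genes, and of near-identical copies, cannot be told apart.

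The remaining class I genes, namely TCP8, the other TCP14-like, TCP15-like and TCP7-like genes and the TCP11-like genes, had log2 changes between -0.57 (TCP11-like, CmoCh03G012190) and 0.40 (TCP7-like, CmoCh04G013310), and none passed. TCP8 (CmoCh04G019530) was at 12.4, 12.7 and 12.7 FPKM in SCK and at 11.7 to 15.6 in SR, with a log2 change of 0.03 ± 0.13. The TCP11-like gene on chromosome 3 overlaps by 627 bases, on the other strand, a gene for a chloroplast RNA polymerase sigma factor with 765 to 897 counts in SCK and 1133 to 1562 in SR.

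Of the CIN genes, those named after TCP2, TCP3, TCP4 and TCP10, the kind that miR319 targets in Arabidopsis, were measurable, and 8 of these 9 were tested. EdgeR called 0 of them, against 14.4% of all tested genes, and 3 had an unadjusted p under 0.05, against 33.3% of all tested genes. DESeq2 called 1 of them, TCP4, and 6026 of all 23509 tested genes. TCP4 on chromosome 16 (CmoCh16G004480) came nearest. It was at 7.32, 11.3 and 7.84 FPKM in SCK and at 2.91, 3.96 and 5.74 in SR, without overlap between the groups. Its log2 change was -1.20 ± 0.33 with an edgeR adjusted p of 0.0545. Of 9 other settings with all libraries 3 called it, namely DESeq2 (0.00617), limma on log2(FPKM + 1) (0.0491) and edgeR on counts divided by 4 (0.0486). EdgeR called it in 0 of 6 fits that each left out 1 library (adjusted p = 0.0762 to 0.135). Of the 3 TCP4-like genes, those on chromosomes 9 and 1 had changes above 0 and that on chromosome 4 a change close to 0. That on chromosome 9 (CmoCh09G008220) was at 2.78, 6.003 and 3.99 FPKM in SCK and at 8.17, 5.99 and 8.82 in SR (log2 change 0.73 ± 0.29, edgeR adjusted p = 0.138), so that SCK replicate 2 and SR replicate 2 were alike. That on chromosome 1 (CmoCh01G012900) was at 3.97 ± 0.281 and 5.34 ± 0.623 FPKM without overlap (log2 change 0.29 ± 0.15), and the most abundant, on chromosome 4 (CmoCh04G006030), was at 9.08, 13.2 and 11.8 FPKM in SCK and at 11.4, 9.30 and 14.2 in SR (log2 change -0.09 ± 0.20, a sign that turned without TMM scaling). The genes on chromosomes 1 and 9 were named after their values were seen.

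The summed level of the 4 TCP4 genes was 22.8 to 34.6 FPKM in SCK and 25.1 to 34.3 in SR. Within it the chromosome 16 gene held 32.0%, 32.5% and 28.3% in SCK and 10.7%, 15.8% and 16.8% in SR. The chromosome 9 gene held 12.2%, 17.3% and 14.4% in SCK and 30.1%, 23.8% and 25.7% in SR. The FPKM ratio of the chromosome 9 to the chromosome 16 gene was 0.379 to 0.533 in SCK and 1.51 to 2.81 in SR. In deposited counts the chromosome 9 gene was the higher in every library. It had 290 to 575 counts in SCK and 790 to 1068 in SR, against 155 to 219 and 69 to 141. Which gene is the higher in SCK, and the size of each share, thus depend on the length scaling of FPKM. This is again a pair chosen for its difference and left without a test.

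**Figure D4:**
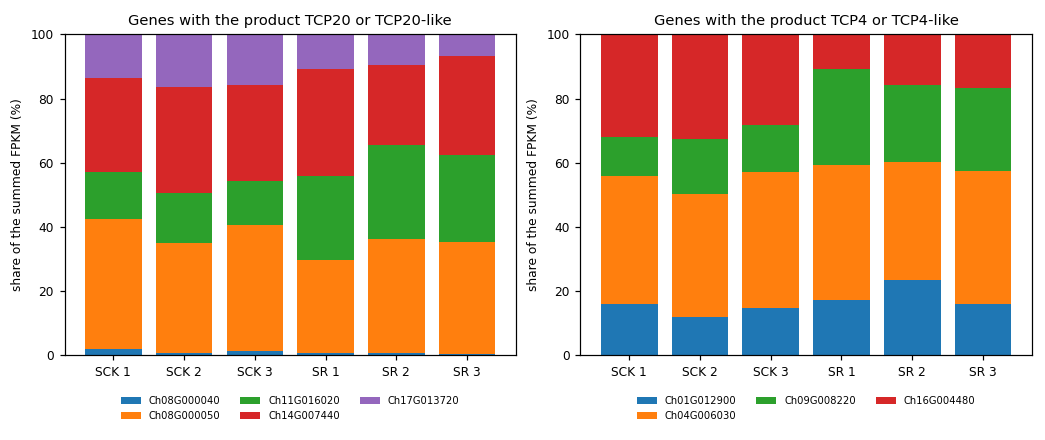
Share of each gene in the summed FPKM of the TCP20-like genes (left) and of the TCP4 and TCP4-like genes (right) in each library. In every SR library the chromosome 11 gene takes a larger part of the TCP20 sum, and the chromosome 16 gene a smaller part of the TCP4 sum, than in any SCK library.

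TCP3-like (CmoCh02G000700), the most abundant CIN gene, was at 19.8, 11.1 and 13.4 FPKM in SCK and at 7.49, 11.5 and 13.9 in SR. The groups overlapped (log2 change -0.58 ± 0.30, edgeR adjusted p = 0.228). TCP10-like (CmoCh11G020050) had a log2 change of -1.10 ± 0.44 (edgeR adjusted p = 0.132) at 1.45 ± 0.589 and 0.736 ± 0.254 FPKM. TCP2 (CmoCh07G000940) was at 3.92 ± 0.435 and 4.05 ± 0.713 FPKM and TCP2-like on chromosome 18 (CmoCh18G004570) at 3.13 ± 0.0760 and 4.31 ± 0.970. The remaining TCP2-like gene (CmoCh03G014070) stayed at 0.432 to 1.02 FPKM and was not tested.

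The TCP5, TCP13 and TCP17 products form the other branch of the CIN genes, which in Arabidopsis acts with phytochrome-interacting factors in hypocotyl elongation under shade and warmth. They were hardly present here. Both TCP5-like genes (CmoCh10G003140 and CmoCh11G002140) and TCP13-like (CmoCh01G004390) had a count of 0 in all 6 libraries. A count of 0 allows up to 3 read pairs, taken as 12 deposited counts, which is 0.166 to 0.229 CPM (counts scaled to the library total) and covers counting error only. TCP17-like (CmoCh14G011890) was at 0.473, 0.0139 and 0.498 FPKM in SCK and at 0.278, 0.331 and 0.618 in SR, so that no difference was detectable at this depth.

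The CYC/TB1 genes were near the limit of detection as well. Arabidopsis TCP18 (BRC1) and TCP12 (BRC2) repress the outgrowth of axillary buds. Both TCP18-like genes and a TCP12-like gene (CmoCh14G008150) had a count of 0 in every library. The highest in mean FPKM, TCP12-like CmoCh18G010670, was at 1.03, 0.550 and 0.928 FPKM in SCK and at 0.594, 0.544 and 0.763 in SR. These values came from 6 to 13 counts a library, with 8 and 11 in SR replicates 2 and 3. TCP12-like CmoCh04G021160 was listed with counts only in SCK replicate 1 and SR replicates 2 and 3 (0.174, 0.275 and 0.300 FPKM). Its counts there were 9, 18 and 18, so in SR replicates 2 and 3 it had more counts than CmoCh18G010670. TCP12-like CmoCh18G010660 had counts only in SCK replicate 2 (0.201 FPKM, 11 counts). In a fit with no filter on low values CmoCh18G010670, CmoCh04G021160 and CmoCh18G010660 had edgeR adjusted p = 0.748, 0.663 and 0.312. The pair on chromosome 18 overlaps by 692 bases on opposite strands, and the pair of TCP18-like genes by 833 bases.

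**Figure D5:**
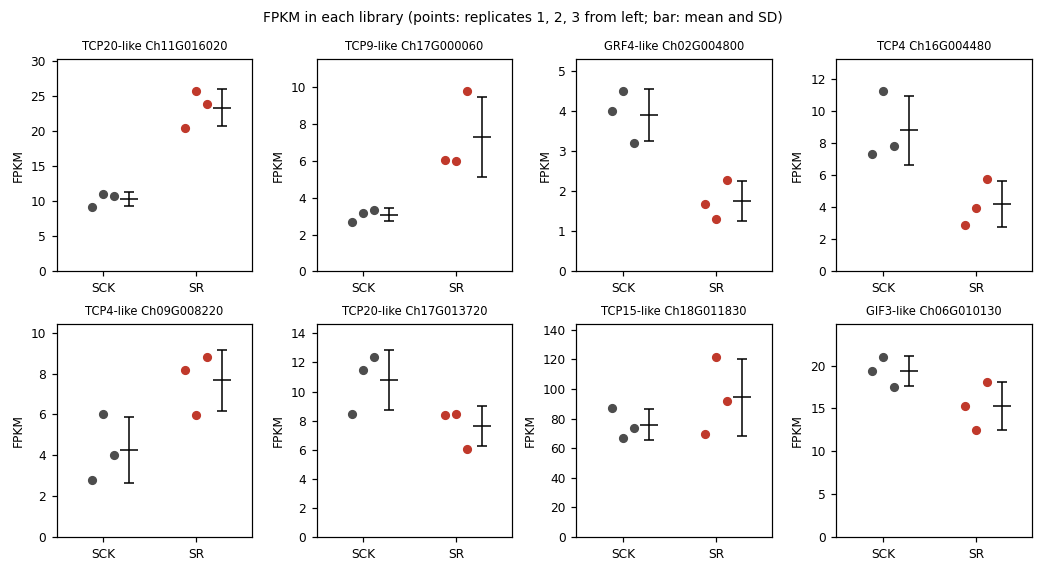
FPKM in each library for 8 members, with points for replicates 1, 2 and 3 from left to right and a bar for the mean and SD of 3 libraries. TCP20-like on chromosome 11, TCP9-like and GRF4-like passed the test; the other 5 panels show members that did not.

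Among the growth-regulating factors, GRF4-like on chromosome 2 (CmoCh02G004800, 2635465 to 2640119) was the member called as a fall. In rice GRF4 promotes grain size and nitrogen use. The gene was at 4.004, 4.50 and 3.203 FPKM in SCK and at 1.68, 1.32 and 2.29 in SR. Every SR library was thus below every SCK library. It fell by 1.28 ± 0.29 on the log2 scale (edgeR adjusted p = 0.0317), from 3.90 ± 0.656 to 1.76 ± 0.492 FPKM. EdgeR lost the call without any of the 6 libraries (adjusted p = 0.0577 to 0.0914), with log2 changes of -1.51 to -1.10, while DESeq2 called it with all libraries (0.000376) and limma on log2(FPKM + 1) did so too (0.0358).

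The 5 genes with the product GRF1-like were mixed in direction. In Arabidopsis GRF1 and its close relatives promote the growth of leaves and cotyledons. The most abundant, on chromosome 3 (CmoCh03G009370), was at 3.38, 5.88 and 4.58 FPKM in SCK and at 5.32, 7.31 and 10.9 in SR (log2 change 0.63 ± 0.29, edgeR adjusted p = 0.181). SR replicate 3 was the highest there, and the groups overlapped. CmoCh05G001280 was at 4.79, 3.98 and 4.11 FPKM in SCK and at 3.39, 3.87 and 2.59 in SR (log2 change -0.53 ± 0.21, edgeR adjusted p = 0.126), without overlap. CmoCh12G005480, named after its values were seen, was at 1.75 ± 0.419 and 2.91 ± 0.215 FPKM, also without overlap (log2 change 0.59 ± 0.25, edgeR adjusted p = 0.152). None of the 3 passed, and neither did CmoCh07G006390 (-0.14 ± 0.30) or CmoCh05G001290 (0.02 ± 0.53), which starts 303 bases after the end of CmoCh05G001280 on the same strand.

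The GRF5-like genes that were tested had log2 changes of -0.61 (CmoCh14G012650), -0.13 (CmoCh05G014170) and -0.12 (CmoCh01G000380). Growth-regulating factor 9 (CmoCh14G020510), which limits leaf growth in Arabidopsis, was at 2.40 ± 0.310 and 2.82 ± 0.354 FPKM (log2 change 0.09 ± 0.20, edgeR adjusted p = 0.786). The 3 GRF3-like genes, both GRF6-like genes and a GRF5-like gene (CmoCh11G007380) were below the filter. Among these the widest spread was that of GRF3-like CmoCh14G002800, with 2.66, 0.561 and 1.63 FPKM in SCK and 0.316, 0.817 and 0.605 in SR. The GRF6-like gene CmoCh10G007890 lies wholly within CmoCh10G007880 on the opposite strand, an overlap of 1477 bases, and CmoCh10G007880 had counts in SR replicate 3 alone.

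The GRF1-interacting factors were far above single growth-regulating factors in level. GRF1-interacting factor 1 (CmoCh05G012510), named ANGUSTIFOLIA3 in Arabidopsis, was at 19.9, 18.0 and 21.1 FPKM in SCK and at 18.2, 25.3 and 20.6 in SR. Its log2 change was -0.02 ± 0.14 (edgeR adjusted p = 0.923), with a sign that turned without TMM scaling (0.11). GRF1-interacting factor 3-like (CmoCh06G010130) was at 19.4, 21.02 and 17.5 FPKM in SCK and at 15.3, 12.5 and 18.1 in SR. In FPKM the lowest SCK library lay below the highest SR library, by a margin that depends on the scaling. The log2 change of -0.47 ± 0.19 did not pass (edgeR adjusted p = 0.136).

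Lists built around partners and targets in Arabidopsis were taken by product name. They take in whole product families and general organ growth genes, so a listed gene is not thereby a known partner or target. Of 44 tested genes of the list of growth partners of the GRF and GIF proteins, 1 rose and 2 fell (6.82% called, against 14.4% of all tested genes), with a median log2 change of 0.05. DA1-related 1 (CmoCh20G011820), of the family of DA1 peptidases that limit organ growth, was at 18.8, 19.1 and 17.9 FPKM in SCK and at 9.55, 6.65 and 7.33 in SR (log2 change -1.38 ± 0.17, edgeR adjusted p = 0.0118). A BIG BROTHER-related-like ubiquitin ligase gene (CmoCh15G006730) rose by 1.12 ± 0.27 (edgeR adjusted p = 0.0374). The other fall was AIL6 (CmoCh16G008040), an AINTEGUMENTA-like factor, at 1.54 ± 0.299 FPKM in SCK and 0.376 ± 0.155 in SR. It passed the filter on low values only through the SCK libraries, so it had to differ and its call supports nothing. That list held 16 tested SWI/SNF remodelling genes, of a complex that GIF proteins recruit. EdgeR called 0 of these 16, against 14.4% of all tested genes. At an unadjusted p under 0.05 there were 4, against 33.3% of all tested genes. DESeq2 called 2 of the 16, and 6026 of all 23509 tested genes.

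Of 47 tested genes listed as TCP partners and targets, 3 rose and 4 fell, with a median log2 change of -0.10. That is 14.9% called, about the share of all tested genes (14.4%). Among the 28 SPL factors tested, a family with members that act with TCP proteins in ageing and leaf form, 2 rose and 2 fell (14.3% called, again near that share). An SPL7 gene (CmoCh06G009880), of a product known for copper homeostasis, went from 42.1, 24.7 and 31.9 FPKM in SCK to 9.48, 10.6 and 5.66 in SR (log2 change -2.08 ± 0.30, edgeR adjusted p = 0.0137). No other gene with the product SPL7 passed. CmoCh06G009870 and CmoCh06G009890 had log2 changes of -0.79 and -0.69 (edgeR adjusted p = 0.107 and 0.0828). The changes of CmoCh06G014560, CmoCh14G016950 and CmoCh14G022230 were -0.16, -0.15 and 0.50, and CmoCh06G014570 was below the filter. Of 6 TOPLESS corepressors 2 fell (33.3%, against 7.16% of all tested genes), and of 11 tested lipoxygenases 1 rose (9.09%, against 7.2%). The CUP-SHAPED COTYLEDON genes, organ boundary factors that CIN proteins keep down in Arabidopsis, were tested in 2 of 10 cases. EdgeR and DESeq2 called 0 of these 2 (0 at an unadjusted p under 0.05, against 33.3% of all tested genes). The higher of them (CmoCh12G006270) was at 15.2, 1.19 and 6.35 FPKM in SCK and at 0.804, 6.63 and 2.02 in SR. It was thus highest in SCK replicate 1, followed by SR replicate 2, and lowest in SR replicate 1.

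Of the G2/M cyclins, whose Arabidopsis relatives include a TCP20 target, 8 were tested, but 3 of them passed the filter on low values only through the SR libraries and so had to differ. Cyclin S13-7-like (CmoCh07G011480), at 0.312, 0.505 and 0.250 FPKM in SCK and at 1.32, 1.98 and 1.63 in SR, is among these 3. Of the other 5, 2 rose and 0 fell, with a median log2 change of 0.32, where 7.2% of all tested genes rose. Of 16 tested KNOX genes, which growth-regulating factors bind, 2 rose and 1 fell (18.8% called, against 14.4% of all tested genes). A LET6 gene (CmoCh07G003200) was at 7.28, 6.39 and 6.12 FPKM in SCK and at 10.01, 13.3 and 12.6 in SR, without overlap (log2 change 0.71 ± 0.15, edgeR adjusted p = 0.0288). The more abundant LET6 gene (CmoCh11G018800) was at 68.3 ± 7.90 and 79.7 ± 15.5 FPKM and did not pass (log2 change 0.10 ± 0.18, edgeR adjusted p = 0.746). Of 7 tested genes of the small RNA machinery, 1 rose and 1 fell (28.6% called, against 14.4% of all tested genes). Dicer homolog 2 (CmoCh10G008700), which in Arabidopsis acts in antiviral silencing, was at 5.29, 6.39 and 5.60 FPKM in SCK and at 10.7, 14.2 and 13.7 in SR (log2 change 1.02 ± 0.12, edgeR adjusted p = 0.0116). Dicer homolog 1 (CmoCh06G009540), which in Arabidopsis makes miRNAs, fell from 21.98 ± 0.555 to 18.3 ± 0.180 FPKM (log2 change -0.40 ± 0.11, edgeR adjusted p = 0.0477). Of 7 genes with the names PCF, CYCLOIDEA or DICHOTOMA, TCP relatives that the product names above do not take in, only PCF8-like (CmoCh13G011140) was tested. It was at 0.899, 1.23 and 1.80 FPKM in SCK and at 1.35, 1.84 and 2.75 in SR, with overlap (log2 change 0.46 ± 0.39, edgeR adjusted p = 0.460).

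Marker lists of other tissues are given beside these changes, with the share of all tested genes that rose at 7.2% and that fell at 7.16%. Of 26 tested green tissue genes 10 fell (38.5%) and 0 rose, and the list summed to 9754 to 16183 FPKM in SCK and 7938 to 9835 in SR. Shoot apex genes had 3 rises and 1 fall among 25 tested (4 called, near the 14.4% of all tested genes). They summed to 677 to 851 FPKM in SCK and 817 to 1031 in SR. This list takes in all 17 KNOX genes above, so it is not independent of them. Of these, 16 were tested, with 2 rises and 1 fall. The fall was a knotted-1-like 3 gene (CmoCh05G003680, edgeR adjusted p = 0.0303). A knotted-1-like 7 gene (CmoCh15G012520, edgeR adjusted p = 0.0431) was among the rises. The list was taken by product name, so a listed KNOX gene is not thereby a known marker of the shoot apex. The KNOX genes alone summed to 529 to 606 FPKM in SCK and 576 to 659 in SR. Within the shoot apex list a WUSCHEL-like gene (CmoCh03G007160) was at 0 in every library and the SHOOT MERISTEMLESS-like gene (CmoCh03G005800) at 13.2 to 17.1 FPKM. Xylem genes, 2 rises among 11 (18.2%), summed to 64.9 to 77.0 FPKM in SCK and 85.2 to 132 in SR. Phloem genes, 1 rise among 8 (12.5%), lay at 3386 to 3609 FPKM in SCK and 2793 to 5389 in SR. Root genes lay at 60.9 to 154 FPKM in SCK and 120 to 278 in SR, with a Casparian strip gene (CmoCh07G008710) at 0 throughout. EdgeR and DESeq2 called 0 of the 3 root genes tested (0 at an unadjusted p under 0.05, against 33.3% of all tested genes). The SCK and SR sums overlapped for the green tissue, shoot apex, phloem and root lists and not for xylem. The hypocotyl itself has no defining marker in these lists. The part of tissue make-up in the changes of TCP and growth-regulating factor genes was not tested.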

How the data were processed

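Per the file headers, the deposited table gives every gene raw counts in whole numbers beside FPKM. HISAT and StringTie are named, per the submitters' processing notes, without versions. Genome build, annotation and use of strand: not given in the sources used here. FPKM was 0.0001 where the count was 0. In addition, 6 count columns fit no sample's labels and were left out. The value 4 occurred 1350 times against 567 for 3 and 516 for 5, so 1 read pair may stand for about 4 counts, and true depths would then be lower by that factor.

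Counts were tested with edgeR 4.0.16 in R 4.3.3 (glmQLFit and glmQLFTest, TMM factors, group as the only term), SE being the absolute log2 change divided by the square root of F. Calls have an adjusted p under 0.05. DESeq2 1.42.0, limma 3.58.1, other scalings and filters, a replicate block and fits without each library were alternatives. EdgeR with and without the block, DESeq2 and limma were tested on simulated data.

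Members and lists were chosen with earlier results of these data known. Full values are given for called members and, in each subfamily, for the 2 most abundant members and that with the smallest p, and from each of the 6 pathway lists (GRF and GIF partners, TCP partners and targets, cyclins, KNOX, small RNA, other TCP relatives) for the gene with the smallest adjusted p. Other genes were named after their values were seen.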

Additional observations from a re-analysis of the deposited data

How the results depend on the processing

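EdgeR called 3375 genes (1692 rises, 1683 falls) and 3 members. DESeq2 called 6026 genes and 6 members, adding TCP4, TCP19-like and TCP20-like on chromosome 17. Without TMM factors 3757 genes were called, of which 2602 rose, and with limma on log2(FPKM + 1) 3473, of which 2385 rose; limma with a pseudocount of 0.1 gave 2308 rises among 3363. Leaving out each library in turn gave 0 to 3437 genes and 0 to 3 members in edgeR, and 3637 to 6465 genes and 4 to 9 members in DESeq2, the latter added after the data were seen (leaving out SCK replicate 2 gave 5354 genes and 5 members, SCK replicate 1 gave 6 members, SR replicate 2 gave 5405 genes and 7 members, and SR replicate 3 gave 5 members). Members called by edgeR were 0 without SCK replicate 3 and 1 (TCP20-like on chromosome 11) when SCK replicate 1, SCK replicate 2 or SR replicate 3 was left out. The shared replicate numbers of the titles showed no sign of pairing: deviations of same-numbered libraries correlated at -0.15, -0.25 and 0.09. Those of differently numbered libraries correlated at -0.14 to 0.26. With 3 libraries in each group a weak pairing could not be seen this way, so pairing is not excluded. With the numbers as a replicate block edgeR called 0 genes (6564 at an unadjusted p under 0.05) and 0 members (7 of 40), with adjusted p = 0.0517 for TCP20-like on chromosome 11. No member called in edgeR with all libraries changed sign under any alternative run. Among named members that were not called, GRF1-interacting factor 1 turned to 0.10 and 0.11 (limma with a pseudocount of 1 and 0.1) and 0.11 (without TMM factors), and TCP4-like on chromosome 4 to 0.0286, 0.0306 and 0.0306 in the same fits. Without single libraries, edgeR gave -0.14 to 0.048 for GRF1-interacting factor 1, -0.26 to 0.058 for TCP4-like on chromosome 4 and -0.036 to 0.31 for TCP15-like on chromosome 18. DESeq2 turned the first to 0.00465, 0.00255, 0.0396 and 0.00284 when SCK replicates 1 or 3 or SR replicates 1 or 3 were left out, in that order; leaving out SR replicate 2 gave 0.054 and -0.040 for the other two. The members' median became 0.01 without SR replicate 1. The cause of these shifts was not tested.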
